A study of Mus musculus with 28 samples.

Results

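The pituitary transcripts described here are listed only by an AK number, the accession style given to sequenced mouse cDNA clones, and have no gene symbol. The members were all rows named AK followed by digits whose mean normalized read count over the 28 mice was at least 300. That rule took 134 of 3054 AK rows (4.39%), in a table of 32594 rows of which 9.37% were AK rows. The remaining 2920 AK rows had lower means, and 360 AK rows had no read in any mouse. The members were chosen by this measured mean over all mice, so levels are given as a description without a test. The comparisons between treatments and between sexes were not used by the rule.

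Whole pituitaries were taken from male and female C57BL/6J mice, 8 weeks old on arrival, and profiled by RNA sequencing with a stranded mRNA kit. The groups, set by sex, were home cage controls (HCC), restraint for 20 min, paradoxical sleep deprivation (PSD) for 12 h, and PSD + restraint. In the PSD method cage mates, 4 to a tank, stand on small platforms surrounded by water and are woken by touching it when muscles relax in REM sleep. All mice, controls included, had been adapted to the procedure beforehand. Restrained mice were killed 10 min after restraint, and tissue was collected 18 h after PSD ended. Each female group held 4 mice, whereas the male groups held 4 (HCC), 2 (restraint), 3 (PSD) and 3 (PSD + restraint). No other treatment, allele or transgene was named for any group. The questions were how the pituitary responds to restraint, how earlier sleep loss changes that response, and whether the sexes differ.

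An AK row can stand for several kinds of RNA. Some cDNA clones are long noncoding RNAs, some are unspliced or alternative ends of a known gene, and others are antisense transcripts or copies of abundant mRNAs. In the pituitary, acute stress acts through hypothalamic corticotropin-releasing hormone on corticotropes, and within minutes cells switch on immediate early genes whose transcription needs no new protein. Long noncoding RNAs and unspliced ends of such genes can follow the same time course. The name alone does not say which kind a row is, and none of the 134 members (0 matches) had a symbol, position or sequence in the reference tables used here, so coordinates and sequences were not analysed here.

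The libraries held 14024465 to 52948531 counts per mouse, with a median of 33389717. The summed CPM (counts of a mouse scaled to a common library size) of the 3 somatotrope markers (Gh, Ghrhr, Pou1f1) was 60160 to 226597 and that of the 2 lactotrope markers (Prl, Drd2) 31014 to 231837, so hormone genes that define the pituitary were high in every mouse. Single mice stood apart. Male HCC mouse 1 had 16128 summed CPM of the 6 neurointermediate lobe markers (all other mice 39253 or more) and 4.67 of the 4 pituicyte markers. Female PSD mouse 1 had 242 CPM of the 8 forebrain and hypothalamus markers, the highest sum (lowest mouse 34.7). A PSD + restraint female also reached 181. Female restraint mouse 3 had the highest share of counts in the members (3.23%). Male HCC mouse 1 had 2.94% and the lowest mouse 2.07%. In whole pituitaries, fewer cells of a type and less RNA per cell cannot be told apart.

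The mean normalized count of the members ran from 303 to 168387, with a median of 590 and quartiles of 391 and 1428. These counts are not corrected for transcript length, so the order of members is an order of reads, not of molecules. There were 44 members at 1000 or more and 8 at 10000 or more. All 134 had at least 10 counts in every mouse and passed the filter on low counts, and the lowest single count was 16. Just inside the limit lay AK049852 (304) and AK082064 (303), and just outside it AK012891 (299.97) and AK195755 (293).

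**Figure D1:**
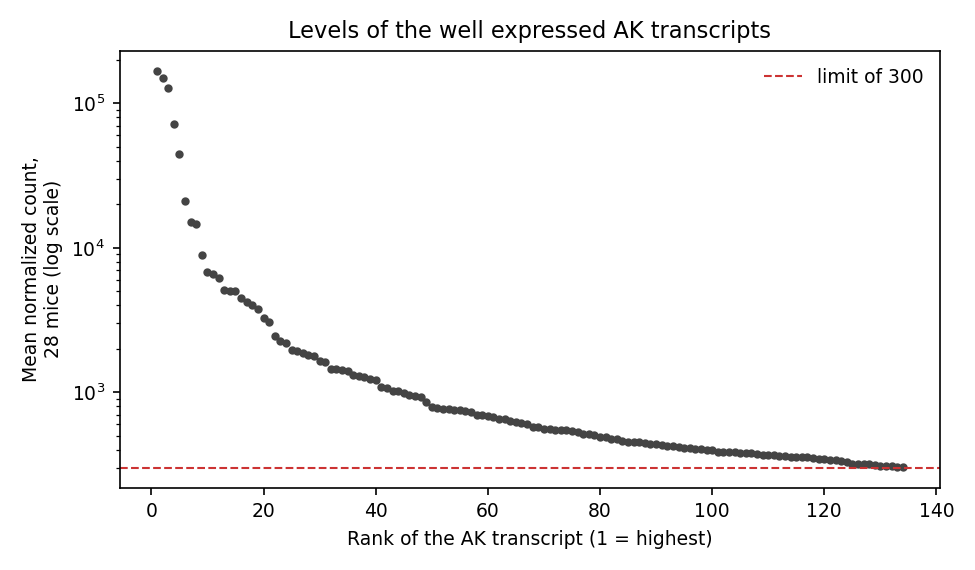
Mean normalized read count over 28 mice (log axis) of each of the 134 AK transcripts, ordered from highest to lowest; the dashed line is the limit of 300 that chose them. A few transcripts stand far above the rest, from 168387 downwards, and most lie under 1428, the upper quartile.

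A handful of rows held most of the reads. AK131579 (168387), AK131586 (148569), AK142750 (128143), AK018753 (71438) and AK163440 (44343) together made 73.9% of the sum over the members. They were followed by AK205379 (20931), AK210533 (15155), AK220016 (14622), AK213609 (8916) and AK202078 (6811). In the individual mice the 5 highest took 67.5 to 80.8% of the members' counts and 1.42 to 2.60% of all counts. The other 129 members together took 0.556 to 0.714% of all counts, a much narrower range.

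Only 3 members had a mean under 300 in the 8 HCC mice alone. AK039878 averaged 67.0 normalized counts in controls and 322 over all mice, so that it entered through the groups in which it was high and had to differ between groups. AK030308 (299 in controls) and AK199358 (299) lay at the limit. Conversely, 3 AK rows reached 300 in the controls but not over all mice. Counts of called members that follow are therefore also given without AK039878 where it was among them.

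To describe what the members moved with, the residual log2 CPM after removal of the 8 group means was correlated between each member and 17014 rows of other names, over the 28 mice, and the row with the highest Pearson r was taken as the partner. The partner is the highest of many coefficients and the points share libraries and depth, so r is a description. The highest r had a median of 0.83 (range 0.71 to 0.99), and it was at least 0.9 for 26 members and at least 0.95 for 9. Whether a member lies in its partner or shares reads with it was not tested, as no position was at hand.

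Several members followed genes for chaperones, glycolytic enzymes or the cytoskeleton, or other named rows, with r from 0.84 to 0.99. AK220016 (r = 0.99), AK213609 (0.99), AK187054 (0.95) and AK219219 (0.93) had Hspa8, the constitutive Hsp70 chaperone, as partner. AK217986 followed Hsp90aa1, an inducible Hsp90 chaperone (r = 0.99), and AK138949 followed Mif, a cytokine with tautomerase activity (0.99). AK201904 (0.98) and AK195420 (0.98) had Gm12070 as partner, with the glycolytic gene Gapdh next (0.96 for each), and AK186650 had Gapdh itself (0.91). AK199495 followed Eno1b, an enolase gene (0.98), AK202495 followed Tuba1b, an alpha tubulin (0.94), and AK200600 (0.91) and AK202078 (0.84) followed Actg1, the cytoplasmic gamma actin.

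The 5 highest members moved together. All 10 of their pairs had r between 0.93 and 0.99, and between 0.86 and 0.98 without female restraint mouse 3. Pdha1, a subunit of pyruvate dehydrogenase, was the partner of AK131586 (0.93), AK163440 (0.88) and AK131579 (0.87). Atp5c1, the gamma subunit of ATP synthase, was that of AK018753 (0.85) and AK142750 (0.82). These matches rested in part on female restraint mouse 3, which had 182 CPM of Pdha1 against 87.9 to 107 in the other mice. Without it r was 0.69 for AK131586, 0.75 for AK163440, 0.65 for AK131579, 0.70 for AK018753 and 0.65 for AK142750. The table held 0 rows named for the mitochondrial genome (mt-), so no such gene could have been a partner. AK205379 and AK210533 moved as one (r = 0.998 between them), with Polm, a DNA polymerase (0.95), and Sfxn1, a mitochondrial serine transporter (0.95), as partners.

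Over all 8911 pairs of members the median r was -0.01, with 473 pairs at 0.5 or more and 20 at 0.9 or more. Members with accession numbers of 180000 and above, a boundary chosen after the values were seen, were 35 of 299 such AK rows (11.7%), and those below were 99 of 2755 (3.59%). The former had a median level of 1449 and a median highest r of 0.88, with 15 of the 35 at 0.9 or more. For the latter the median level was 490 and the median highest r 0.82, with 11 of the 99 at 0.9 or more.

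Within groups most members varied little. The coefficient of variation of CPM within groups had a median of 10.1% (range 4.16 to 68.1%) and exceeded 30% for 5 members, AK039878 (68.1%), AK140265 (39.6%), AK090172 (33.5%), AK077353 (33.5%) and AK030561 (32.8%).

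Restraint in females raised a few members. A member was called when the edgeR quasi-likelihood test, adjusted by Benjamini-Hochberg over all rows tested, gave an adjusted p of at most 0.05 and the log2 fold change against the HCC mice of the same sex was at least 0.32 in size. Of the 134 members 5 were higher and 0 lower (3.73%; 4 without AK039878), beside 0.543% of all 18059 rows tested (0.482% higher and 0.0609% lower) and 0.566% of the rows of other names at the same level. The median log2 fold change was 0.07 over the members and 0.01 over all rows.

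AK039878 was the member whose low control level made a difference between groups a condition of being chosen. Its CPM was 2.31, 2.53, 1.77 and 1.34 in the HCC females and 23.9, 25.1, 4.84 and 25.8 in the restrained females. Every restrained female lay above every control, with mouse 3 far below the other 3. The log2 fold change was 3.35 (SE 0.49, edgeR adjusted p = 0.00305), a 10.2-fold rise. Without mouse 3, singled out after its value was seen, it was 3.67. Given how this member was chosen, these values are a description and not independent support.

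Its partner was Homer1, a postsynaptic scaffold gene with a short activity-induced form (r = 0.88). Without female restraint mouse 3 r was 0.83, and without HCC male 1 it was 0.84. Without both of these and female PSD mouse 1 it was 0.70. When group means were kept r was 0.95, a value that includes the group differences through which AK039878 was chosen. Homer1 had 8.74, 10.5, 8.66 and 7.70 CPM in the HCC females and 23.8, 26.0, 8.57 and 26.0 in the restrained females. The same 3 mice were high in both and the same mouse 3 was low in both. Homer1 itself did not pass the test (log2 fold change 1.26, SE 0.31, edgeR adjusted p = 0.0907).

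AK216824 had 11.6, 17.1, 12.8 and 15.1 CPM in HCC females and 35.5, 35.2, 26.9 and 38.3 after restraint. The groups did not overlap, and the mean rose from 14.2 ± 2.46 to 34.0 ± 4.92 (SD, n = 4), a log2 fold change of 1.28 (SE 0.21, edgeR adjusted p = 0.00926). Its partner Ptp4a1, an immediate early protein tyrosine phosphatase (r = 0.84), rose by nearly the same amount (1.13, SE 0.17, edgeR adjusted p = 0.0044).

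AK017280 had 27.6, 29.5, 28.7 and 22.8 CPM in controls and 35.3, 44.8, 34.8 and 37.0 after restraint, again without overlap. The log2 fold change was 0.49 (SE 0.10, edgeR adjusted p = 0.0247). Its partner Aox3, an aldehyde oxidase, had a low r (0.75) and did not pass the test (-0.12, edgeR adjusted p = 0.862).

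The members that followed gamma actin rose modestly. AK202078 had 205, 203, 197 and 190 CPM in controls and 258, 270, 268 and 296 after restraint (0.47, SE 0.09, edgeR adjusted p = 0.0174). AK200600 had 124, 127, 125 and 131 CPM in controls and 158, 154, 154 and 174 after restraint (0.34, SE 0.07, edgeR adjusted p = 0.0342). Neither pair of groups overlapped, and Actg1 had a log2 fold change of 0.33 (edgeR adjusted p = 0.0576). DESeq2, which shrinks fold changes, left AK200600 at 0.32, under the fold limit.

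In males restraint was measured in 2 mice only, and 2 members were higher and 0 lower (1.49%), beside 0.296% of all 18271 rows tested (0.29% higher and 0.00547% lower). AK216824, called in females, was not among them by edgeR (log2 fold change 0.79, SE 0.19, edgeR adjusted p = 0.184). DESeq2 called it in males (0.52, DESeq2 adjusted p = 0.0115). AK085136, at 71.6, 82.7, 87.4 and 79.2 CPM in controls, reached 117 and 130 in the restrained males. Its log2 fold change was 0.63 (SE 0.09, edgeR adjusted p = 0.00709). AK017280 was the single member called by edgeR after restraint in both sexes. In males it had 28.5, 24.7, 27.6 and 21.3 CPM in controls and 43.0 and 42.7 after restraint (0.75, SE 0.11, edgeR adjusted p = 0.009). Both groups lay apart in each case, and without restrained male 3 neither member was called.

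AK039878 was far lower in restrained males (3.34 and 4.96 CPM) than in 3 of the 4 restrained females, and HCC male 1 (5.60) lay above both. The other HCC males had 0.835, 1.21 and 1.46 CPM. Its male log2 fold change was 0.83 (SE 0.58, edgeR adjusted p = 1), and without HCC male 1 it was 1.83 (SE 0.37, edgeR adjusted p = 0.0708); neither passed the test. The difference between the sexes in the response to restraint was called for 0 of 134 members by edgeR (0% of all rows) and for 0 by DESeq2. By edgeR 10 members had an unadjusted p under 0.05 (7.46%, against 4.25% of all rows). The smallest unadjusted p was that of AK202078 (female minus male log2 fold change 0.51, SE 0.13, edgeR adjusted p = 1), which had 188 and 212 CPM in the restrained males and 189 to 229 in the HCC males.

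After PSD alone, which had ended 18 h earlier, no member passed the edgeR test within either sex. In females 0 of 134 were called, beside 0.0277% of all rows (0.0221% higher and 0.00554% lower), and 22 had an unadjusted p under 0.05 (16.4%, against 19.8% of all rows). DESeq2 called 5, of which AK030561, AK137436, AK217854 and AK219219 were lower and AK161964 was higher. The share of all rows called by DESeq2 is not given here, so this count cannot be set against the edgeR shares. AK161964 differed by 0.96 on the log2 scale with edgeR (adjusted p = 0.127), or by 0.58 (adjusted p = 0.25) without female PSD mouse 1, the mouse with high forebrain markers. The smallest p belonged to AK030561, with 22.5, 36.1, 26.2 and 51.0 CPM in HCC females and 14.8, 13.8, 13.6 and 18.996 after PSD. The PSD females all lay below the controls, which varied widely among themselves (log2 fold change -1.13, edgeR adjusted p = 0.108).

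In males 0 of 134 were called after PSD, beside 0.00547% of all rows (0.00547% higher and 0% lower), and 23 had an unadjusted p under 0.05 (17.2%, against 8.85% of all rows). DESeq2 called 7, all lower, and the 5 highest members, which moved together within groups, were among them. As in females, that count has no share of all rows called by DESeq2 beside it. The smallest p was that of AK131586, at 5836, 5059, 4947 and 4994 CPM in HCC males and 3944, 3943 and 4115 after PSD. The groups did not overlap, with a log2 fold change of -0.37 (SE 0.06, edgeR adjusted p = 0.0916).

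The other 4 of the 5 highest members had values in the same direction in PSD males. Their pairs had r between 0.93 and 0.99 within groups, so the 5 are not separate results. AK131579 averaged 5637 ± 643 CPM (SD, n = 4) in HCC males and 4147 ± 120 (n = 3) after PSD, and AK163440 averaged 1509 ± 214 and 1132 ± 89.4. Their log2 fold changes were -0.44 for AK131579, -0.40 for AK142750, -0.39 for AK018753 and -0.41 for AK163440, with edgeR adjusted p from 0.135 to 0.268. In PSD females the largest of the 5 in size was 0.04. HCC male 1 was the highest HCC male for AK131586, and without it the log2 fold change was -0.32 (edgeR adjusted p = 0.068). That mouse had 2.34% of its counts in the 5 highest members, against 1.78 to 2.01% in the other HCC males. Values without it are not given here for the other 4 members.

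PSD + restraint gave the most calls. In females 6 of 134 members were higher and 0 lower (4.48%; 5 without AK039878), beside 2.2% of all rows (1.53% higher and 0.67% lower) and 2.58% of rows of other names at the same level. In males 5 were higher and 1 lower (4.48%; 5 in all without AK039878), beside 2.56% of all rows (1.92% higher and 0.635% lower) and 2.99% of rows of other names at the same level. Median log2 fold changes were near 0 in both sexes (0.05 and 0.01 over the members, 0.01 and -0.01 over all rows). AK017280, AK039878, AK040485, AK085136 and AK216824 were called in both sexes, 5 of the 6 in each. Females and males do not share control mice.

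AK039878 had 47.1, 18.7, 15.3 and 30.8 CPM in PSD + restraint females, against at most 2.53 in controls. In males it had 19.3, 19.3 and 14.2 CPM against at most 5.60 in controls. All treated mice lay above all controls in both sexes. The log2 fold change was 3.82 in females (SE 0.50, edgeR adjusted p = 0.000606) and 2.91 in males (SE 0.51, edgeR adjusted p = 0.01). Without HCC male 1 it was 3.91 in males. Because this member was chosen through groups in which it was high, these values are a description and not independent support. PSD alone left AK039878 at 0.873 to 2.89 CPM in females and 1.26 to 3.51 in males.

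Homer1 passed the test beside it after PSD + restraint. It reached 47.9, 25.5, 21.8 and 31.0 CPM in females and 25.5, 20.8 and 32.1 in males, against 16.1, 6.73, 6.32 and 6.00 in HCC males. The log2 fold change was 1.83 in females (edgeR adjusted p = 0.00591) and 1.55 in males (edgeR adjusted p = 0.0173), each smaller than that of AK039878. HCC male 1 was the highest control for both.

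AK216824 had 47.3, 23.2, 24.7 and 35.9 CPM in PSD + restraint females. In PSD + restraint males it had 25.3, 30.9 and 31.4 CPM against 15.9, 14.7, 9.98 and 14.0 in controls. No treated mouse overlapped the controls of its sex. The log2 fold changes were 1.21 (SE 0.21, edgeR adjusted p = 0.00626) and 1.09 (SE 0.17, edgeR adjusted p = 0.00553), and those of Ptp4a1 were 1.17 (edgeR adjusted p = 0.00175) and 1.09 (edgeR adjusted p = 0.000812).

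AK017280 rose by a like amount in both sexes. It had 46.1, 45.9, 43.1 and 40.2 CPM in PSD + restraint females and 43.0, 41.9 and 38.0 in PSD + restraint males. Every one of these values exceeded the highest control of the same sex, 29.5 in females and 28.5 in males. The log2 fold change was 0.70 in females (SE 0.10, edgeR adjusted p = 0.00101) and 0.69 in males (SE 0.10, edgeR adjusted p = 0.00317).

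AK085136 had 137, 145, 149 and 114 CPM in PSD + restraint females against 89.9, 68.2, 89.0 and 54.3 in controls. Males had 116, 113 and 98.8 CPM against 71.6 to 87.4. The groups lay apart in both sexes, with log2 fold changes of 0.86 (SE 0.19, edgeR adjusted p = 0.0232) and 0.45 (SE 0.08, edgeR adjusted p = 0.00918). In females, restraint alone gave 92.4, 149, 70.3 and 87.2 CPM, which overlapped the controls.

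AK040485 rose a little in each sex. It had 18.0, 18.4, 16.5 and 18.6 CPM in PSD + restraint females against 12.7 to 15.2 in controls, and 18.2, 18.5 and 16.8 in males against 10.5 to 14.2. There was no overlap, and the log2 fold changes were 0.39 (SE 0.08, edgeR adjusted p = 0.0162) and 0.48 (SE 0.10, edgeR adjusted p = 0.025). Its partner Tmem87b did not pass the test (-0.04 and -0.12).

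The remaining calls came in 1 sex. AK083547 had 26.8, 21.4, 21.5 and 20.9 CPM in PSD + restraint females against 15.0 to 16.5 in controls, without overlap (0.53, SE 0.11, edgeR adjusted p = 0.0158). Its partner was D030047H15Rik (r = 0.83), and next came Crem, a cAMP-responsive transcription factor gene that also encodes an early repressor (r = 0.83). AK030561 had 14.6, 13.6 and 12.3 CPM in PSD + restraint males against 23.2, 22.1, 16.3 and 17.5, the only lower call (-0.54, SE 0.13, edgeR adjusted p = 0.0397). It was not called without the 3 mice that stood apart (-0.46, edgeR adjusted p = 0.063). Its partner was Itm2b, a membrane protein gene (r = 0.91).

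**Figure D2:**
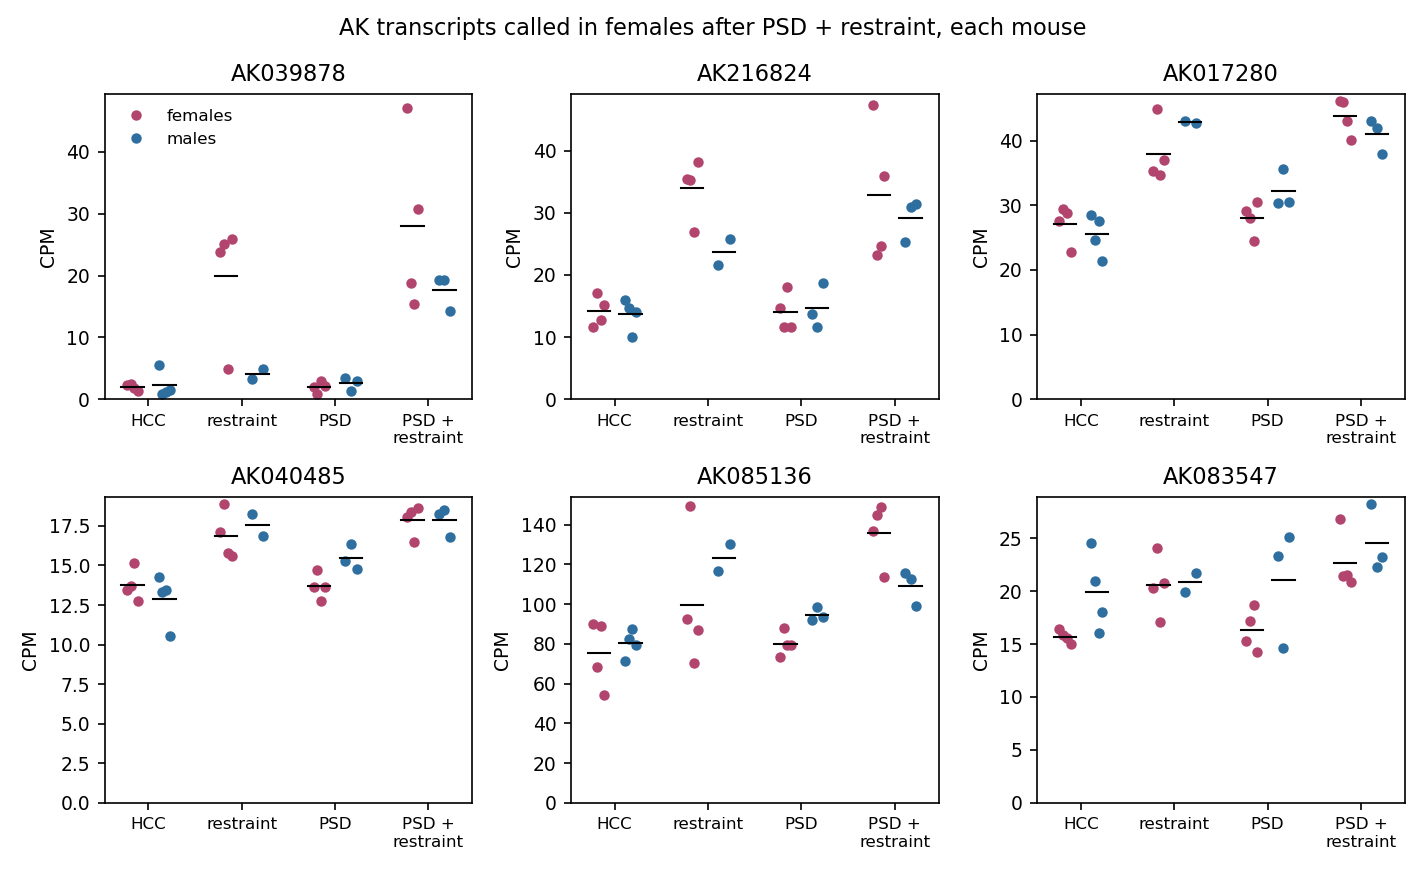
CPM of the 6 members called in females after PSD + restraint, 1 point per mouse and a bar at the mean, in 4 groups of females and 4 of males; each vertical axis starts at 0. AK039878 and AK216824 lie above all controls of their sex in both restrained groups of females and in PSD + restraint males, while AK039878 in restrained males (3.34 and 4.96 CPM) lies below the highest control, and AK017280 reaches 38.0 to 46.1 CPM in every PSD + restraint mouse.

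With neurointermediate lobe markers in the model, 3 female calls after PSD + restraint were lost, AK040485 (edgeR adjusted p = 0.116), AK083547 (edgeR adjusted p = 0.106) and AK085136 (edgeR adjusted p = 0.148). In males AK085136 then lay just under the fold limit (0.32) and AK030561 was lost (edgeR adjusted p = 0.157). The summed CPM of that list was 74532 to 107509 in PSD + restraint females and 39253 to 71929 in HCC females, with all 6 markers detected in each mouse. As the list itself lay apart between these groups, the fit cannot separate it from the treatment, and its part in these calls was not tested.

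**Figure D3:**
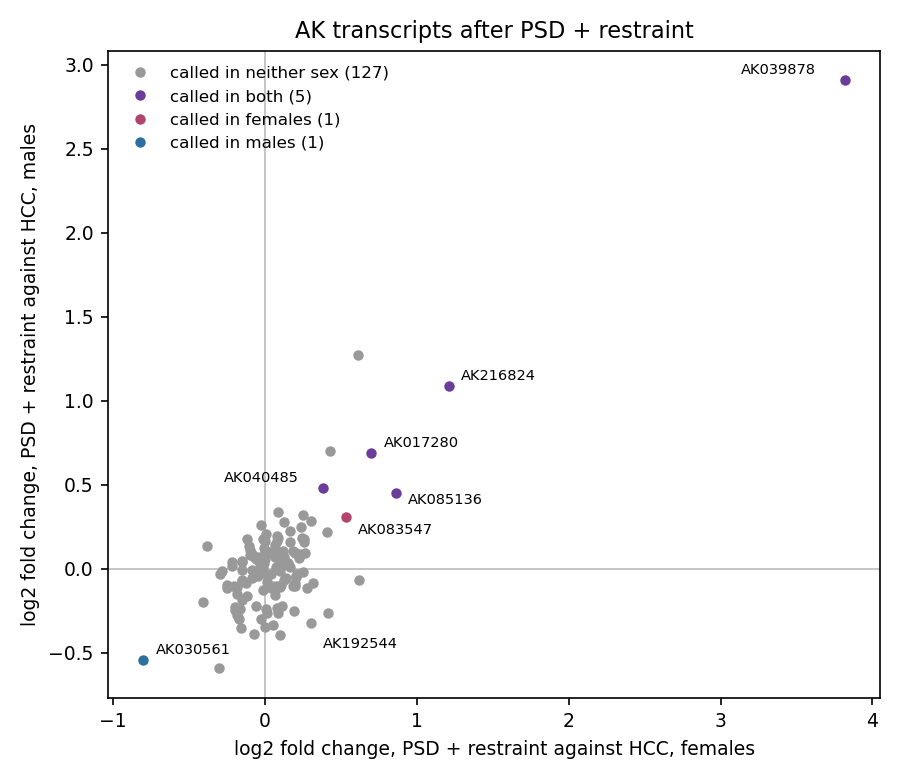
Log2 fold change of each of the 134 members after PSD + restraint against home cage controls, in females (horizontal) and males (vertical), coloured by the sex in which the member was called. Most lie around 0, AK039878 lies at 3.82 and 2.91, and AK192544 lies below 0 in males and above 0 in females.

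The called members were set beside a pair of gene lists. Of 20 named long noncoding RNAs in the table (22 listed, such as Malat1, Neat1 and Meg3), 0 were called by edgeR or by DESeq2 in any treatment comparison within a sex, with 1 to 4 at an unadjusted p under 0.05 in each. Of 20 immediate early genes (such as Fos, Egr1 and Junb), 9 were higher in restrained, 0 in PSD and 14 in PSD + restraint females. The counts in males were 12, 0 and 18. After PSD alone 2 of these genes in females and 15 in males had an unadjusted p under 0.05 by edgeR, and DESeq2 called 0 and 1. Their median log2 fold change after PSD + restraint was 1.94 in females and 2.61 in males. In all, 9 of 134 members (6.72%; 8 without AK039878) were called in at least 1 of the 6 comparisons within a sex, beside 3.87% of the 17858 rows tested in both sexes, and 125 in none.

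With both sexes in 1 model, restraint raised 4 members and lowered 0 (2.99%; 3 without AK039878; beside 1.14% of all 18936 rows, 0.935% higher and 0.206% lower). These were AK017280 (0.60, edgeR adjusted p = 2.84e-05), AK216824 (1.11, edgeR adjusted p = 7.74e-05), AK039878 (2.55, edgeR adjusted p = 0.00166) and AK040485 (0.37, edgeR adjusted p = 0.00177). AK040485 was thus called after restraint alone when the sexes were pooled. For AK039878 a difference between groups was a condition of being chosen, so its values are a description only.

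After PSD + restraint the pooled model gave 8 higher and 1 lower (6.72%; 8 in all without AK039878; beside 5.46% of all rows, 4.1% higher and 1.35% lower). Besides the 5 members called in both sexes and AK083547, it called AK077353 (0.91, edgeR adjusted p = 0.0138), AK005187 (0.33, edgeR adjusted p = 0.0446) and the lower AK030561 (-0.68, edgeR adjusted p = 0.0177). AK005187 had 18.7 to 23.4 CPM in PSD + restraint females against 14.1 to 17.1 in controls, without overlap, while the males overlapped (14.4 to 19.1 against 10.4 to 18.6). Its partner was Lnpep, an aminopeptidase gene (r = 0.85). All treatments were compared with the same controls, so their calls are not independent of each other.

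The pooled model called 1 member higher and 1 lower after PSD alone (1.49%, beside 0.671% of all rows, 0.565% higher and 0.106% lower), both near the limit. AK137436 was lower (-0.41, SE 0.10, edgeR adjusted p = 0.0487), with 8.41 to 9.34 CPM in PSD females against 9.79 to 16.1 in controls and 9.80 to 10.5 in PSD males against 11.3 to 12.3. AK077353 was higher (0.96, SE 0.24, edgeR adjusted p = 0.0497). In edgeR under DESeq2 size factors neither passed (edgeR adjusted p = 0.0507 for AK137436 and 0.0503 for AK077353). The DESeq2 test itself called both (DESeq2 adjusted p = 0.0131 and 0.0169), and AK030561 as lower (DESeq2 adjusted p = 0.0115).

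AK077353 varied with genes of the neurointermediate lobe, which holds the melanotropes, the cells that make alpha-MSH from the Pomc product, and the posterior lobe. Its highest r was with Megf11 (0.96), followed by Pax7, the transcription factor that specifies melanotropes (0.96). With the fixed markers of that lobe r was 0.96 for Drd2 (dopamine receptor), Pcsk2 (prohormone convertase) and Pomc, 0.95 for Oacyl and 0.29 for Scg2. With the 4 pituicyte markers of the posterior lobe it was 0.78 to 0.84. In the corticotrope list it was 0.90 for Tbx19, a factor of melanotropes too, but 0.22 for Crhr1 and -0.03 for Avpr1b. In the forebrain and hypothalamus list it was 0.84 for Avp, the vasopressin gene, and 0.79 for Oxt. The other markers of that list that were tested ran from -0.38 (Tbr1) to 0.17 (Camk2a). With the growth hormone gene Gh it was -0.59. HCC male 1 had only 4.67 summed CPM of the 4 pituicyte markers. Without this mouse r with Megf11 was 0.95, and r with the fixed markers is not given without it.

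Its CPM was 39.1, 28.6, 32.8 and 25.6 in HCC females and 53.7, 89.9, 52.4 and 41.4 after PSD. In males it was 6.18, 24.6, 21.9 and 23.6 in controls and 30.5, 37.3 and 45.8 after PSD. The PSD mice lay above the controls in both sexes, and HCC male 1, the mouse with few neurointermediate lobe markers, was lowest of all. Pax7 was 64.3, 54.9, 51.8 and 53.6 CPM in HCC females and 75.01, 118, 78.7 and 48.3 after PSD. With the neurointermediate lobe markers in the model the log2 fold change of AK077353 was 0.29 (edgeR adjusted p = 0.158) after PSD and 0.16 (edgeR adjusted p = 0.33) after PSD + restraint. As r with those markers was 0.95 to 0.96 for all but Scg2, a smaller value was bound to follow. The part of the lobe in this change was not tested. Without HCC male 1 the log2 fold change of AK077353 was 0.82 after PSD (edgeR adjusted p = 0.0489). Without female PSD mouse 1 it was 0.97 and not called (edgeR adjusted p = 0.0796).

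**Figure D4:**
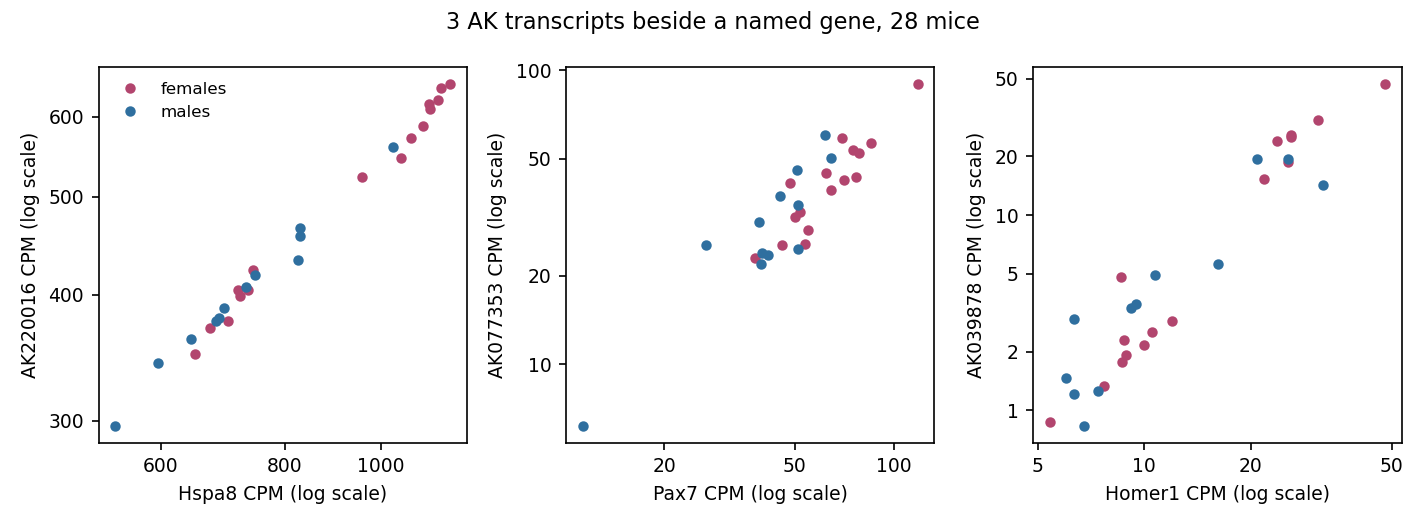
CPM of 3 members against a named gene in each of 28 mice, females and males, both axes on a log scale. AK220016 lies on a near straight line with Hspa8, AK077353 follows Pax7 down to the HCC male at 6.18 CPM, and AK039878 follows Homer1 with a steeper slope.

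The interaction of PSD and restraint was called for 0 of 134 members by edgeR (0% of all rows) and 0 by DESeq2. By edgeR 7 members had an unadjusted p under 0.05 (5.22%, against 3.92% of all rows). The smallest belonged to AK033552 (-0.22, SE 0.09, edgeR adjusted p = 1).

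Sex separated more members than any treatment. Over all mice 8 of 134 were higher in females and 5 lower (9.70%), beside 14.9% of all rows (7.11% higher and 7.79% lower) and 9.74% of rows of other names at the same level. The share in the members was thus near that of other rows as abundant. Of the 20 named long noncoding RNAs 5 were higher and 1 lower (30%). The list named Xist, a transcript of the inactive X chromosome of females, so this count is a description and not a test.

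AK037070 had the smallest p. It had 21.8 to 35.1 CPM (median 29.1) in 16 females and 14.5 to 23.6 (median 17.2) in 12 males, so that only the lowest females overlapped the males. The log2 fold change of females against males was 0.68 (SE 0.05, edgeR adjusted p = 2.92e-11). Its partner Rcor2, a corepressor, had an r of 0.78 and no sex difference that passed the test (0.10, edgeR adjusted p = 0.281).

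AK155692 did not overlap between the sexes, with 117 to 260 CPM (median 152) in females and 60.7 to 97.5 (median 81.7) in males. Its log2 fold change was 0.99 (SE 0.09, edgeR adjusted p = 3.93e-09), and its partner Mir6236, a row for a microRNA, had 1.004 (r = 0.88). AK144265 had 24.3 to 75.7 CPM (median 42.4) in females and 10.8 to 25.4 (median 17.8) in males (1.19, SE 0.14, edgeR adjusted p = 1.48e-07). It followed Lars2, the mitochondrial leucyl-tRNA synthetase (r = 0.97), which also differed (1.07, edgeR adjusted p = 4.04e-07).

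AK045624 was higher in females at 23.0 to 33.3 CPM (median 27.3) against 15.8 to 24.1 (0.52, SE 0.06, edgeR adjusted p = 1.85e-07). AK090172 differed by 0.80 (SE 0.15), and its partner Syne3, a nuclear envelope protein gene, went the other way between the sexes (-0.49, edgeR adjusted p = 6.73e-06) although it moved with AK090172 within groups (r = 0.88). AK187054 differed by 0.38 (SE 0.07) beside its partner Hspa8 at 0.31, and AK138949 by 0.50 (SE 0.12) beside Mif at 0.50. AK030561 differed by 0.49 (SE 0.14), with 13.6 to 51.0 CPM in females and 12.3 to 23.2 in males.

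Among the members lower in females, AK135406 had 9.84 to 15.0 CPM (median 11.6) in females and 12.4 to 19.7 (median 16.4) in males. Its log2 fold change was -0.47 (SE 0.06, edgeR adjusted p = 2.45e-07), near that of its partner Tango2 (-0.42). AK038632 had 11.8 to 19.1 CPM against 18.3 to 24.5 (-0.42, SE 0.06, edgeR adjusted p = 8.69e-06), and AK007082 had 7.46 to 11.5 against 9.35 to 13.9 (-0.38, SE 0.07, edgeR adjusted p = 7.33e-05). The partner of AK007082, Tmem39a, did not pass the test (edgeR adjusted p = 0.417). AK082064 differed by -0.41 (SE 0.12, edgeR adjusted p = 0.00672), and with forebrain markers in the model it did not pass (-0.27, edgeR adjusted p = 0.126).

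AK161964 was lower in females (-0.60, SE 0.14, edgeR adjusted p = 0.00155), with a median of 13.4 CPM against 21.4 in males. Female PSD mouse 1, the mouse with high forebrain markers, had 34.2 CPM, while the other 15 females had 6.56 to 20.3. Without that mouse the log2 fold change was -0.70 (edgeR adjusted p = 1.55e-05). AK161964 followed Ptn, the growth factor pleiotrophin (r = 0.88, and 0.80 without female PSD mouse 1). Over the 7 forebrain markers tested r ran from -0.20 (Avp) to 0.69 (Slc17a7), and over the 3 folliculostellate and stem markers from 0.00 (Sox2) to 0.69 (S100b). Slc17a7 had a median of 11.6 and a highest value of 60.7 CPM, and S100b 2.68 and 35.3. These r can rest on single mice, and they are not given without female PSD mouse 1.

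**Figure D5:**
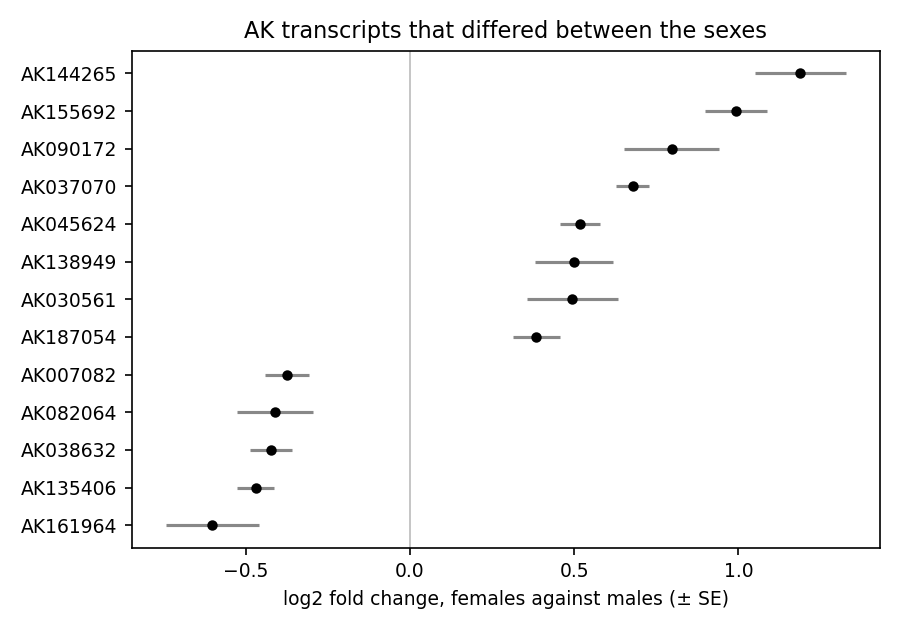
Log2 fold change of females against males over all 28 mice for the 13 members called, with bars of 1 standard error. Values above 0 are higher in females, from AK187054 at 0.38 to AK144265 at 1.19, and the lowest is AK161964 at -0.60.

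The response to PSD, and to PSD + restraint, was compared between the sexes. By edgeR 0 of 134 members were called in either (0% of all rows), with 21 members (15.7%, against 10.8% of all rows) and 9 members (6.72%, against 7.20%) at an unadjusted p under 0.05, and DESeq2 called 1 member, AK192544, in both. AK192544 had 25.03, 21.4, 25.2 and 22.7 CPM in HCC females and 31.5, 26.5, 28.3 and 33.1 after PSD. In males it had 33.3, 36.4, 35.0 and 39.8 in controls and 30.8, 30.3 and 29.4 after PSD. Females after PSD lay above all female controls, and males after PSD below all male controls.

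The same held after PSD + restraint, with 30.2, 30.4, 29.1 and 25.9 CPM in females and 28.01, 30.2 and 28.3 in males. The log2 fold changes were 0.35 (PSD) and 0.30 (PSD + restraint) in females and -0.25 and -0.32 in males. The female minus male difference was 0.60 (SE 0.11, edgeR adjusted p = 0.112) for PSD and 0.61 (SE 0.11, edgeR adjusted p = 0.0886) for PSD + restraint. The male value after PSD + restraint had an edgeR adjusted p of 0.0257 and lay just under the fold limit. Groups apart in opposite directions in the sexes were seen in 1 of 134 members and 0.217% of all rows after PSD, and in 1 of 134 and 0.137% after PSD + restraint.

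The partner of AK192544 was Fads2, the delta-6 fatty acid desaturase (r = 0.88). Fads2 had 76.6, 64.7, 75.1 and 68.7 CPM in HCC females and 101, 87.9, 81.4 and 97.5 after PSD. In males it had 100.1, 105, 106 and 112 CPM in controls and 92.6, 98.3 and 88.5 after PSD. It too lay above the controls in females and below them in males, with a female minus male difference of 0.56 (SE 0.11, edgeR adjusted p = 0.112) for PSD and 0.61 (SE 0.11, edgeR adjusted p = 0.0751) for PSD + restraint.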

How the data were processed

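In 28 libraries of 1 mouse each, the authors aligned paired reads of whole pituitaries to mm10 with MapSplice, counted reads per UCSC gene model with HTSeq 0.9.1 (intersection-nonempty, so reads over more than 1 model may be left out) and deposited whole-number counts; whether counting used strand was not given in the sources used here, so an AK row and an overlapping or antisense gene cannot be told apart. The authors also deposited a normalized signal, the counts divided by 1 size factor per mouse (DESeq2 1.16.1 in the submitters' processing notes), which chose the members only. Groups came from sample titles. PSD mice were treated with cage mates, 4 to a tank, and which mice shared a tank was not given in the sources used here.

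Counts were fitted with edgeR 4.0.16 (R 4.3.3) over all rows passing filterByExpr, with TMM scaling and quasi-likelihood tests, on females, on males (PSD, restraint and their interaction) and on all mice (with sex, or with sex by group for sex differences). DESeq2 1.42.0 was an alternative, with shrunken fold changes except for interactions and sex differences. CPM used TMM; log2 CPM used a prior count of 2. The scripts were tested on simulated data. Replicates of a group differed by more than sampling noise in all 37 pairs within groups (lowest chi-square per degree of freedom 7.48). Same-numbered mice did not deviate together. A row was named in the text if it was among the 10 highest, called (for sex, the 6 smallest p each way; the rest are also given), of smallest p where none was called, or next to the limit; partners were named with them, except 1 that is not reported here. Other members, their partners and AK192544 with Fads2 were named after their values were seen. The members and lists were chosen with earlier results of these data known. Total counts of 14024465 to 52948531 per mouse set the precision. The alternatives were other scaling, filters and limits, DESeq2, marker scores as covariates, the replicate block, and leaving out mice.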

Additional observations from a re-analysis of the deposited data

Results flagged for a closer look

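Of 33 named members examined in 165 groups of 4 mice, 14 groups held 1 mouse far from the others by Dixon's ratio. Chance gives about 1 in 20 for a single group. The 165 share the same mice, and some members, such as AK220016, AK213609 and AK187054, move together. The 14 therefore cannot be set against that rate. Female restraint mouse 3 accounted for 5 of them, being high for AK131586 (7620 CPM, other mice 3801 to 4325) and low for AK220016 (377, others 618 to 647), AK213609 (256, others 393 to 405), AK187054 (35.2, others 55.8 to 57.9) and AK039878 (4.84, others 23.9 to 25.8). HCC male 1 was high for AK131586 (5836, others 4947 to 5059) and AK039878 (5.60, others 0.835 to 1.46) and low for AK077353 (6.18, others 21.9 to 24.6). The others were AK200600 in female PSD mouse 3 (133, others 114 to 116), AK083547 in female PSD + restraint mouse 1 (26.8, others 20.9 to 21.5), AK045624 in female PSD + restraint mouse 4 (23.6, others 28.5 to 28.8), AK090172 in female PSD mouse 1 (10.2, others 13.1 to 13.3) and female restraint mouse 2 (20.3, others 10.4 to 11.8), and AK161964 in HCC female 4 (6.56, others 11.7 to 12.0).

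AK192544 went in opposite directions in the sexes, with a female minus male log2 fold change of 0.60 after PSD (edgeR adjusted p = 0.112) and 0.61 after PSD + restraint (edgeR adjusted p = 0.0886); neither passed the test of the difference by edgeR, and all mice of each sex lay on their own side of their controls.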

How the results depend on the processing

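Over 1526 refits of the 47 member calls, 1388 kept the call, 138 kept the direction but not the call and 0 changed direction. Members called after PSD in all mice fell from 2 to 0 with DESeq2 size factors, with TMM over rows not named AK, with no filter on low counts, with the replicate block, with the neurointermediate lobe score and with the forebrain score, and to 1 without the 3 mice that stood apart (a different member). DESeq2 called 5 members after PSD in females, 7 after PSD in males, 4 after restraint in males (main 2) and 1 in each of the sex differences of PSD and PSD + restraint (main 0). After PSD in all mice it called AK030561, AK077353 and AK137436. The shares of all rows called by DESeq2 are not given here, so its counts have no background beside them. DESeq2 shrank the log2 fold change of AK039878 to 0.68 and 0.87 in females and 0.44 in males, still called. The neurointermediate lobe score left 3 members after PSD + restraint in females (main 6). With no fold limit, 18 were called after PSD + restraint in all mice (main 9) and 43 by sex (main 13). At an unadjusted p under 0.05 by edgeR lay 26.9% of members and 25.5% of all rows after PSD + restraint. By sex these shares were 40.3% and 43.1%. For this and the other refits, those leaving out mice included, shares of all rows called are not given here. The counts of members called in them therefore have no background beside them. The forebrain score and leaving out the 3 mice were chosen after seeing the data, as was recomputing the correlation with each partner without them. Members at r of 0.9 or more were then 22 (main 26), and 2 fell under 0.5, among them AK140265 (0.38, main 0.90).

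Same-numbered mice shared only a number (correlation of deviations -0.35 to 0.33 in females and -0.22 to 0.12 in males); with the replicate block 3 members were called after restraint in females (main 5), 0 after restraint in males (main 2) and 2 after PSD + restraint in males (main 6).

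Leaving out 1 mouse at a time gave 2 to 6 calls after restraint, 0 to 4 after PSD and 3 to 8 after PSD + restraint in females, and 0 to 3, 0 to 0 and 3 to 8 in males. In all mice the ranges were 4 to 6, 0 to 5 and 7 to 12, with 0 to 0 for the interaction, 13 to 16 by sex, and 0 to 0, 0 to 1 and 0 to 0 for the sex differences of restraint, PSD and PSD + restraint. Restraint in females gave 2 without restrained mouse 2 or 4 or control 1, 3 or 4; PSD in females gave 4 without PSD mouse 4; PSD + restraint gave 3 without female treated mouse 1 or control 4, or male treated mouse 1 or 2; restraint in males gave 0 without restrained mouse 3. Low counts limit AK039878 in controls, and 2 restrained males limit that comparison.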
